A study of Mus musculus with 32 samples.

Results

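The mRNA levels of 9 components of insulin and IGF signalling were measured in brown adipose tissue of mice lacking ChREBP: the ligand Igf1, the receptors Insr and Igf1r, the docking proteins Irs1 and Irs2, the PI3-kinase regulatory subunit Pik3r1, the kinases Akt1 and Akt2, and the transcription factor Foxo1. Each probe that carried 1 of these names on the array and was listed in the deposited log2 table was taken, whatever its values. The 9 genes, of 24521 named in that table, had 20 of its 37304 probes. Insr had 2 probes, Irs1, Irs2 and Pik3r1 had 1 each, Akt1, Akt2 and Igf1 had 3 each, Foxo1 had 2 and Igf1r had 4. All 20 entered the test, and the probe with the highest mean over the 32 arrays is called the brightest probe of its gene.

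ChREBP, encoded by Mlxipl, is a glucose-responsive transcription factor with an α isoform and a shorter β isoform made from an alternative first exon. The study asked what the β isoform contributes. Total ChREBP KO mice (Mlxipl-null, lacking both isoforms) were compared with their own WT group, here total-line WT, and ChREBPβ KO mice, whose β-specific exon was deleted by gene editing of embryos, with theirs, here ChREBPβ-line WT. Each group had 8 arrays, all groups were of male C57BL6/J mice per the study's text, and every mouse was fasted for 24 hours and then refed for 18 hours with food and 20% glucose in the drinking water. Both deletions are carried in every tissue, so that changes of brown adipocytes and of the rest of the body are not separated. An age was not given in the sources used here.

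Insulin and IGF1 bind receptor tyrosine kinases that phosphorylate IRS1 and IRS2. These recruit PI3-kinase, whose lipid product brings AKT to the membrane, where it is activated and phosphorylates, among others, FOXO1, which is thereby kept out of the nucleus. In brown adipose tissue the pathway drives glucose uptake and lipid synthesis after a meal, and Irs2 is itself a known target of FoxO factors. The arrays read mRNA only, and no phosphorylation was measured.

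The brown fat marker list was high on all arrays (9 of 9 markers above background, list mean 14.4 to 15.4 on the log2 scale). Its members moved apart in total ChREBP KO by the limma test. Dio2 (log2 fold change 2.19), Ppargc1a (1.18), Adipoq (0.65) and Pparg (0.17) were higher. Elovl3 (-3.16) and Prdm16 (-0.29) were lower, and Ucp1, Cidea and Fabp4 had an adjusted p over 0.05. Markers of other tissues were also measured. The list mean of 10 skeletal muscle markers lay at 12.7 to 16.1 in the total-line WT group and 14.2 to 15.7 in total ChREBP KO, against 6.43 to 12.02 and 6.53 to 11.5 in the ChREBPβ-line WT and KO groups, so that the lines did not overlap in it. The list mean of 10 liver markers was above 7 on 17 of the 32 arrays. These were 4 of total-line WT, 2 of total ChREBP KO, 6 of ChREBPβ-line WT and 5 of ChREBPβ KO. The list mean of 7 macrophage markers was lower in total ChREBP KO (9.24 to 9.59) than in total-line WT (9.71 to 10.5) with no overlap, and that of 5 stromal markers was 11.4 to 11.6 against 11.4 to 12.5. In whole tissue, fewer cells of a type and less RNA per cell cannot be told apart. The log2 intensity of the brightest probe of Mlxipl itself (A_55_P2119957) fell from 16.15 to 13.67 in total ChREBP KO and from 16.34 to 14.84 in ChREBPβ KO. Of the other Mlxipl probes, A_55_P2728555 fell by 0.77 and by 1.14, and A_55_P2045158 differed by 0.14 (adjusted p = 0.068) and -0.08 (adjusted p = 0.625).

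In total ChREBP KO, Irs1 was lower, and Irs2, Foxo1, Igf1 (by 1 of its 3 probes) and Igf1r (by 1 of its 4 probes) were higher than in total-line WT. No called difference was found for Insr, Akt1, Akt2 or Pik3r1. By the limma test, 6 of the 20 probes passed an adjusted p of 0.05 (5 higher, 1 lower), where 43.2% of all 37306 probes tested passed, 22.7% higher and 20.5% lower. The share of the members was thus no larger than that of the array. With a fold of at least 1.5 also required 4 of 20 passed, beside 9.66%. By brightest probe, 4 of 9 genes passed (3 higher, 1 lower), beside 44.1% of all genes, 22.9% higher and 21.1% lower. The median log2 fold change of the 20 probes was 0.06, and that of all probes 0.02.

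In ChREBPβ KO, 0 of the 20 probes passed the limma test, beside 2.55% of all probes. Of the 20, 5 had an unadjusted p under 0.05, as had 5088 of all 37306 probes. The median log2 fold change was -0.03, against 0.00 over all probes. The effects of the knockouts themselves differed for 7 of the 20 probes (2 higher and 5 lower in the ChREBPβ effect), where 24.1% of all probes did, 11.7% higher and 12.4% lower. With a fold of at least 1.5 as well, 2 did, beside 7.50%. The plot of values by array shows these patterns gene by gene.

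**Figure D1:**
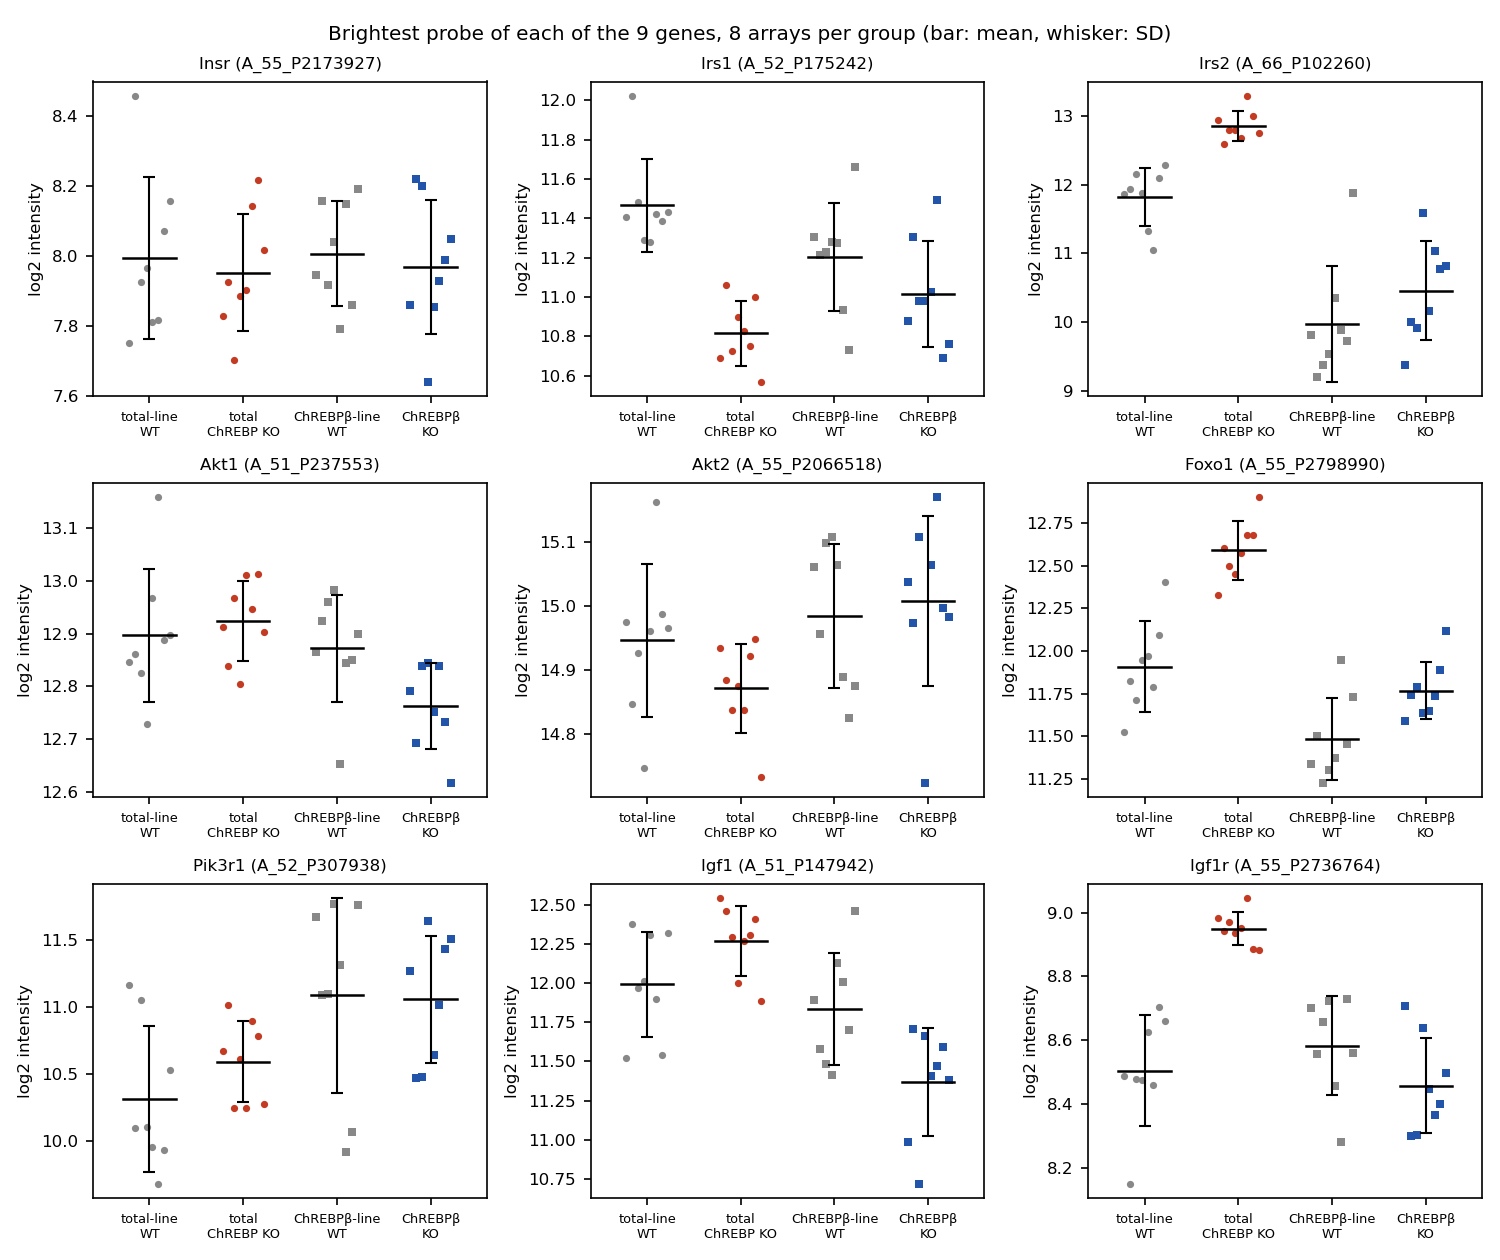
Log2 intensity (quantile normalized) of the brightest probe of each of the 9 genes on every array, by group; points are arrays, the bar is the mean and the whisker the SD of 8 arrays. The total ChREBP KO arrays lie below all total-line WT arrays for Irs1 and above them for Irs2 and Igf1r, whereas the ChREBPβ groups overlap in every panel. The share of all genes without such overlap was not counted.

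Probes that carry these differences, and for Igf1r also a neighbouring one that did not follow, are shown here by the first 30 of their 60 bases, 5′ to 3′, as deposited with the array, so that the transcript each one read can be looked up. They are in lower case throughout, since no base within them is singled out.
Irs1 A_52_P175242: tacccccaattctgtctggtacttagaatt
Irs2 A_66_P102260: tggagctttgccctctgccagcacctatgc
Foxo1 A_55_P2798990: tgacagcaggaactgaggagcattccaaag
Foxo1 A_52_P453884: ttctgggagaatgttcgctttctggtctat
Igf1 A_51_P147942: cgcaggatcctttgctgcttgagcaacctg
Igf1 A_55_P2085979: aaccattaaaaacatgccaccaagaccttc
Igf1r A_55_P2736764: ttgtaacaatctattcacaagcctcctgta
Igf1r A_51_P318365: caacacttaatagcaacaggacactcgaga
Igf1r A_55_P2804885: acatttctcatcttaaagtttgggagtaat
Positions given below for probes are those of mouse build mm9 in the array files. No mm9 gene annotation was at hand, so whether a probe lies in coding sequence or not is not stated.

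The receptors come first in the pathway. Insr encodes the insulin receptor. Its brightest probe (A_55_P2173927, chr8:3155472-3155531, minus strand) ran from 7.75 to 8.46 with a median of 7.95 in total-line WT and from 7.70 to 8.22 with a median of 7.91 in total ChREBP KO. The ChREBPβ-line WT arrays ran from 7.79 to 8.19 with a median of 7.99 and the ChREBPβ KO arrays from 7.64 to 8.22 with a median of 7.96. The ranges of the 4 groups covered each other almost wholly. The log2 difference was -0.04 in total ChREBP KO (95% confidence interval -0.23 to 0.15; limma adjusted p = 0.75) and -0.04 in ChREBPβ KO (-0.23 to 0.15; adjusted p = 0.929). The dimmer Insr probe gave -0.08 and -0.06. The order of the 4 group means of the brightest probe had no gap beyond the SD of its neighbours.

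Igf1r encodes the receptor for IGF1. Its brightest probe (A_55_P2736764, chr7:75371371-75371430, plus strand) ran from 8.15 to 8.71 (median 8.48) in total-line WT and from 8.88 to 9.05 (median 8.95) in total ChREBP KO, and the groups did not overlap. The increase was 1.36-fold (log2 fold change 0.44, SE 0.07, limma adjusted p = 4.82e-06). Over the 4 wash batches, the array washing groups named in the labels, the difference was 0.37 to 0.56. A batch held 1 to 3 arrays of a group, and without overlap the sign of the difference was fixed. In the ChREBPβ line the probe ran from 8.28 to 8.73 (median 8.61) in WT and from 8.30 to 8.71 (median 8.42) in KO, a log2 difference of -0.13 (95% confidence interval -0.27 to 0.02; adjusted p = 0.463). The difference between these effects was -0.57 (adjusted p = 6.27e-05).

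The other Igf1r probes did not follow the brightest one. The probe A_51_P318365 begins only 185 bases further along the same chromosome strand, and it ran from 7.10 to 7.81 (median 7.52) in total-line WT and from 7.38 to 7.82 (median 7.58) in total ChREBP KO, a log2 difference of 0.09 (adjusted p = 0.405). In an exact two-sided permutation test over arrays, its change was 0.35 below that of the brightest probe (difference -0.35, exact p = 0.000311, adjusted p = 0.00342 over 22 pairs of probe and contrast). The dimmer probes A_52_P668647 and A_55_P2804885, which begin 38856 and 38575 bases from the brightest and carry accessions of cDNA clones, gave -0.17 (adjusted p = 0.0784) and -0.21 (adjusted p = 0.0647), and each was called lower under 3 of 17 other settings of the fit. Their change differed from that of the brightest probe by -0.61 (exact p = 0.000155, the smallest these arrays allow) and -0.65 (exact p = 0.000622), both with adjusted p = 0.00342. In ChREBPβ KO these last probes leaned the other way, by 0.11 and 0.17, without passing the limma test. A statement on Igf1r mRNA as a whole therefore rests on which probe is read.

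**Figure D2:**
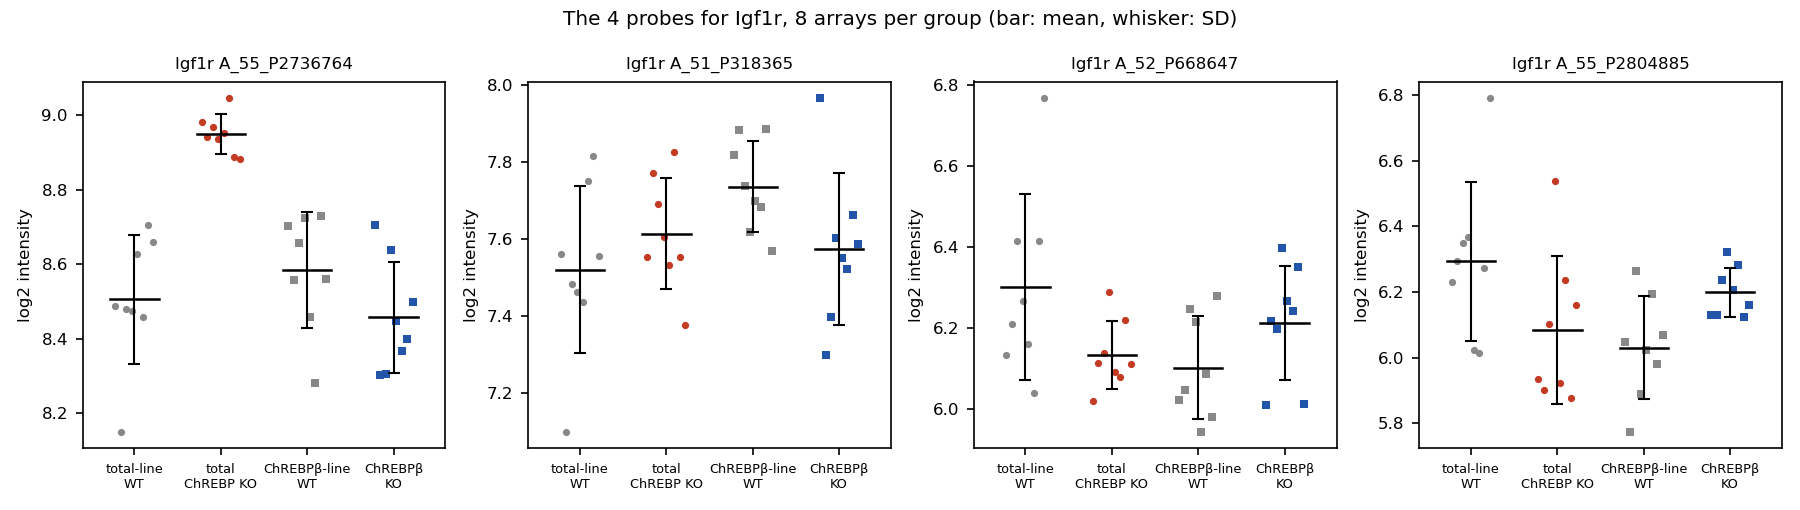
Log2 intensity of the 4 probes named for Igf1r on every array, by group; points are arrays, bars means and whiskers SD of 8 arrays, each panel on its own scale. The total ChREBP KO arrays stand clear of all total-line WT arrays in the panel of A_55_P2736764, and overlap with them in the other panels.

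Igf1 encodes insulin-like growth factor 1, made by stromal and immune cells of fat as well as by liver. Its brightest probe (A_51_P147942, chr10:87393516-87393575, plus strand) ran from 11.52 to 12.38 (median 11.99) in total-line WT and from 11.89 to 12.54 (median 12.30) in total ChREBP KO, with wide overlap and a log2 difference of 0.28 (95% confidence interval -0.03 to 0.59; limma adjusted p = 0.147). In the ChREBPβ line it ran from 11.41 to 12.46 (median 11.80) in WT and from 10.72 to 11.71 (median 11.44) in KO. All 8 ChREBPβ KO arrays were below the WT mean and all 4 wash batches gave a negative difference (-0.73 to -0.24), but the ranges overlapped and the log2 difference of -0.47 (95% confidence interval -0.78 to -0.16) had an adjusted p of 0.104. The knockout effects differed by -0.74 (adjusted p = 0.011), by -0.52 with slide as a fixed block (adjusted p = 0.14) and by -0.78 without the arrays with liver markers (adjusted p = 0.19), so that either setting ended the call. The last value was no smaller, with 2 to 6 arrays left per group.

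The Igf1 probe A_55_P2085979 (chr10:87378456-87378515) ran from 9.38 to 9.75 (median 9.63) in total-line WT and from 9.75 to 10.51 (median 9.95) in total ChREBP KO, just without overlap, and rose 1.32-fold (log2 fold change 0.40, SE 0.08, limma adjusted p = 9.96e-05). In ChREBPβ KO it differed from WT by -0.04 (95% confidence interval -0.20 to 0.12). The dim probe A_52_P306327 spread over 5.32 to 8.90 within the ChREBPβ-line WT group alone and passed in no comparison. Its Pearson r with the liver list was 0.44 over 32 arrays, group means removed. That of the brightest Igf1 probe was 0.26 and that of A_55_P2085979 was 0.21. With group means removed, the brightest Igf1 probe moved with the macrophage list (Pearson r = 0.60 over 32 arrays) and with the stromal list (r = 0.60), and A_55_P2085979 did not (r = -0.11 and -0.15). The arrays share their tissue makeup, and the part of these cells in the Igf1 values was not tested beyond adding both list means to the fit, a setting chosen after seeing the data. There the total ChREBP KO effect on the brightest probe was 0.82 (adjusted p = 0.000969) and that on A_55_P2085979 was 0.35 (adjusted p = 0.0305). The macrophage list did not overlap between total ChREBP KO and total-line WT, so this fit cannot separate the list from the knockout.

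Irs1 and Irs2 encode the docking proteins that link the receptors to PI3-kinase, and they moved in opposite directions. Irs1 (A_52_P175242, chr1:82229692-82229751, minus strand) ran from 11.28 to 12.02 (median 11.41) in total-line WT and from 10.57 to 11.06 (median 10.79) in total ChREBP KO. Every KO array lay below every WT array. The decrease was 1.57-fold (log2 fold change -0.65, SE 0.12, limma adjusted p = 2.66e-05), with -0.82 to -0.49 over the wash batches. Without overlap the sign in each batch was fixed. In the ChREBPβ line Irs1 ran from 10.73 to 11.66 (median 11.25) in WT and from 10.69 to 11.49 (median 10.98) in KO. That difference was -0.19 (95% confidence interval -0.43 to 0.05; adjusted p = 0.521), with 6 of 8 KO arrays below the WT mean.

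Irs2 (A_66_P102260, chr8:11004490-11004549, minus strand) ran from 11.05 to 12.28 (median 11.91) in total-line WT and from 12.60 to 13.30 (median 12.80) in total ChREBP KO, again without overlap. It rose 2.05-fold (log2 fold change 1.03, SE 0.29, limma adjusted p = 0.00373), by 0.71 to 1.31 over the wash batches, with the sign fixed by the lack of overlap. In the ChREBPβ line it ran from 9.20 to 11.88 (median 9.78) in WT and from 9.37 to 11.59 (median 10.47) in KO. The ranges there spanned more than 2 log2 units each and overlapped, and the difference of 0.48 (95% confidence interval -0.10 to 1.07) did not pass (adjusted p = 0.501). The 1 WT array at 11.88 stood apart, and without it the difference was 0.75 (adjusted p = 0.0923). The knockout effects on Irs2 differed by -0.55, which did not pass either (adjusted p = 0.358).

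The WT groups differed in Irs2 as well. The ChREBPβ-line WT group was below total-line WT by 1.85 (fold 3.61, SE 0.29, limma adjusted p = 5.44e-06), in all 4 wash batches (-2.82 to -0.96). The order of group means was total ChREBP KO (12.86 ± 0.22, SD, n = 8), total-line WT (11.82 ± 0.43), ChREBPβ KO (10.46 ± 0.72) and ChREBPβ-line WT (9.97 ± 0.85), of which only the last pair lay within their SD. The lines also differ in the muscle list, and line, breeding and dissection cannot be told apart. Between these WT groups 8 of the 20 probes passed (3 higher, 5 lower), beside 39.2% of all probes, 24.2% higher and 15.0% lower. With a fold of at least 1.5 as well, 2 passed (Irs2 and Pik3r1), beside 7.58%.

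The decrease of Irs1 and the increase of Irs2 in total ChREBP KO kept their call when any 1 array was left out and without the 17 arrays with liver markers (Irs1 -0.56, adjusted p = 0.000219; Irs2 1.12, adjusted p = 0.0162). With the macrophage and stromal list means in the fit, Irs1 gave -0.42 (adjusted p = 0.0549) and Irs2 1.1 (adjusted p = 0.0515), which ended both calls while the Irs2 value was no smaller than without them. Since the macrophage list did not overlap between these groups, that setting cannot separate the list from the knockout. That setting and the one without liver arrays were added after seeing the data, and what part these cells have in the Irs1 and Irs2 values was not tested further.

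The promoters of these genes, from 250 bases before to 50 bases after the start, were taken from RefSeq (GRCm38.p6), with an entry for 8 of the 9 genes. The E-box CACGTG, a motif that carbohydrate response elements are built from, was searched on both strands; it reads the same on each. Among the 13 entries of the 8 genes, 2 held it, those of Irs1 (from position -115 relative to the start) and Irs2 (from -44), beside 7.15% of all 32851 promoters. Both are shown because they belong to the docking proteins that moved apart, with the E-box in capitals.
Irs1, chr1:82291390-82291689, minus strand: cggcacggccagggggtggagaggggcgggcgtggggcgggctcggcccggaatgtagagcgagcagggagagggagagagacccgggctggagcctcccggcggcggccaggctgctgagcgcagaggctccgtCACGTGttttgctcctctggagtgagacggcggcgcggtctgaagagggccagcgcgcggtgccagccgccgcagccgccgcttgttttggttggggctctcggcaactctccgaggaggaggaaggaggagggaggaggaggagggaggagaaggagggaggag
Irs2, chr8:11008880-11009179, minus strand: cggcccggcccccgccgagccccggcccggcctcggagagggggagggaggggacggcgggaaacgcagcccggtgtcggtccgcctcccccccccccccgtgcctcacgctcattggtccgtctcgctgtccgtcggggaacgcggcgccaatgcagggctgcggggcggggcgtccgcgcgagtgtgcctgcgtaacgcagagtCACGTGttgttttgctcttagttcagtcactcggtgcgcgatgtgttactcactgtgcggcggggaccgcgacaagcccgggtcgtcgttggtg
The FoxO motif GTAAACA (or TGTTTAC) was in 1 of the 13 entries, an Akt1 promoter, and in 3.65% of all. The sterol response motif TCACNCCAC (or GTGGNGTGA) was in 0 of the 13 and in 1.24% of all. These are matches of letters. A whole carbohydrate response element was not searched for, and no binding was measured.

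**Figure D3:**
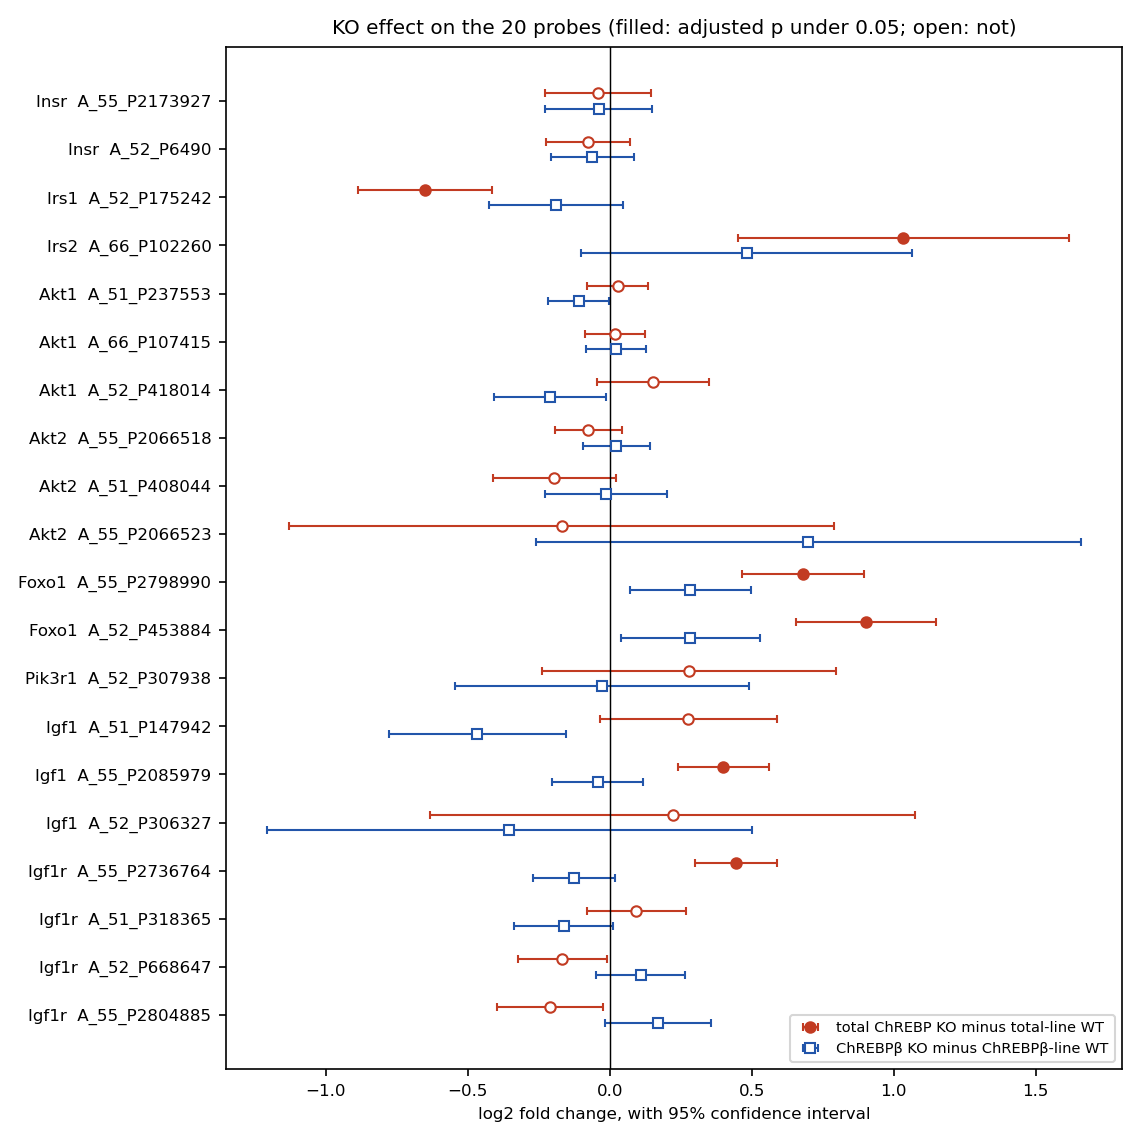
Log2 fold change of each of the 20 probes in total ChREBP KO against total-line WT (circles) and ChREBPβ KO against ChREBPβ-line WT (squares), with 95% confidence intervals from the limma fit; filled symbols passed an adjusted p of 0.05. The 6 filled circles are those of Irs1, Irs2, both Foxo1 probes, 1 Igf1 probe and 1 Igf1r probe, and no square is filled.

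Further down, Pik3r1 encodes the regulatory subunit that carries PI3-kinase to IRS proteins. Its probe (A_52_P307938, chr13:102459406-102460448, minus strand) ran from 9.67 to 11.16 (median 10.09) in total-line WT and from 10.24 to 11.01 (median 10.64) in total ChREBP KO. It ran from 9.91 to 11.77 (median 11.20) in ChREBPβ-line WT and from 10.47 to 11.64 (median 11.14) in ChREBPβ KO. The spread within a group was larger than either knockout difference, which was 0.28 (95% confidence interval -0.24 to 0.80) in total ChREBP KO and -0.03 (-0.55 to 0.49) in ChREBPβ KO. Without the arrays with liver markers the total ChREBP KO difference was 0.58 and passed (adjusted p = 0.0479). Between the WT groups Pik3r1 was higher in the ChREBPβ line by 0.77 (limma adjusted p = 0.0154). Among the wash batches that difference ranged from -0.48 to 1.49, negative in 1 of 4, and with the liver and muscle list means in the fit it was 0.93, no smaller, but did not pass (adjusted p = 0.15). The muscle list did not overlap between the lines, so that fit cannot separate the list from the line. With the macrophage and stromal list means the Pik3r1 difference was 0.37 (adjusted p = 0.566).

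Akt1 and Akt2 encode the kinases on which the pathway converges, Akt2 being the form tied to glucose uptake in fat. The brightest Akt1 probe (A_51_P237553, chr12:113892079-113892138, minus strand) ran from 12.73 to 13.16 (median 12.88) in total-line WT and from 12.80 to 13.01 (median 12.93) in total ChREBP KO, a log2 difference of 0.03 (95% confidence interval -0.08 to 0.13). ChREBPβ-line arrays of it ran from 12.65 to 12.98 (median 12.88) in WT and from 12.62 to 12.84 (median 12.77) in KO. The difference there was -0.11 (-0.22 to -0.002; limma adjusted p = 0.353), with all 8 KO arrays below the WT mean. The Akt1 probe A_52_P418014 (-0.21 in ChREBPβ KO, adjusted p = 0.311) also had all 8 KO arrays below the WT mean, and A_66_P107415 differed by 0.02.

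The brightest Akt2 probe (A_55_P2066518, chr7:28424405-28424464, plus strand) ran from 14.75 to 15.16 (median 14.96) in total-line WT and from 14.73 to 14.95 (median 14.88) in total ChREBP KO. It ran from 14.82 to 15.11 (median 15.01) in ChREBPβ-line WT and from 14.72 to 15.17 (median 15.02) in ChREBPβ KO. The log2 differences were -0.08 (95% confidence interval -0.19 to 0.04) and 0.02 (-0.10 to 0.14). Scaled to the 75th percentile instead of by quantiles, the total ChREBP KO difference was -0.17 (adjusted p = 0.00801), and -0.16 (adjusted p = 0.00769) from the processed signal, so that its call rests on the scaling. The probe A_51_P408044 gave -0.20 (adjusted p = 0.139) in total ChREBP KO. With the macrophage and stromal list means in the fit that value became -0.64 (adjusted p = 0.000185). The macrophage list did not overlap between total ChREBP KO and total-line WT, so this fit cannot separate the list from the knockout. The probe A_55_P2066523 was at 4.15 on 1 ChREBPβ-line WT array, where its spot was not above background, and at 9.46 to 9.85 on the other 7. Its ChREBPβ KO difference of 0.70 became 0.01 without that array.

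Foxo1 encodes the transcription factor that AKT holds back. Its brightest probe (A_55_P2798990, chr3:52150946-52151005, plus strand) ran from 11.53 to 12.41 (median 11.88) in total-line WT and from 12.33 to 12.90 (median 12.59) in total ChREBP KO, overlapping only at the edge. It rose 1.60-fold (log2 fold change 0.68, SE 0.10, limma adjusted p = 2.85e-06). The other probe (A_52_P453884, chr3:52153289-52153348) ran from 10.88 to 11.75 (median 11.24) and from 11.88 to 12.36 (median 12.15), without overlap, and rose 1.87-fold (log2 fold change 0.90, SE 0.12, adjusted p = 2.5e-07). Over the wash batches the increases were 0.41 to 0.98 and 0.48 to 1.18. For the second probe the sign there was fixed, since its groups did not overlap. Both kept their call under all 17 other settings of the fit and with any 1 array left out. The change of the second probe exceeded that of the first by 0.22 (exact permutation p = 0.000622, adjusted p = 0.00342 over the 22 pairs).

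In the ChREBPβ line the brightest Foxo1 probe ran from 11.23 to 11.95 (median 11.41) in WT and from 11.59 to 12.11 (median 11.74) in KO, with all 8 KO arrays above the WT mean. The difference of 0.28 (95% confidence interval 0.07 to 0.50) had an adjusted p of 0.168 and was positive in all 4 wash batches (0.05 to 0.48). The other probe also differed by 0.28 (adjusted p = 0.258). The Foxo1 effects of the knockouts differed by -0.40 for the brightest probe (adjusted p = 0.0487) and by -0.62 for the other (adjusted p = 0.00734), smaller in ChREBPβ KO. The call of the brightest probe held in only 11 of the 32 fits that left out 1 array (adjusted p up to 0.0841) and in 9 of 16 other settings, and that of the other probe in 32 and 15. Without the arrays with liver markers these became -0.16 (adjusted p = 0.706) and -0.32 (adjusted p = 0.374). Foxo1 was also lower in ChREBPβ-line WT than in total-line WT, with a log2 difference of -0.42 on either probe (adjusted p = 0.00167 and 0.00586). With the macrophage and stromal list means in the fit these became -0.21 (adjusted p = 0.387) and -0.11 (adjusted p = 0.717).

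By the same fit, the Irs1 effects of the knockouts differed by 0.46 (limma adjusted p = 0.0381), a call that was lost on leaving out any of 9 single arrays (adjusted p up to 0.0689). It held in 12 of 16 other settings. The difference was 0.28 with macrophage and stromal list means (adjusted p = 0.322), 0.21 without the arrays with liver markers (adjusted p = 0.463) and 0.45 with slide as a fixed block (adjusted p = 0.072). The dim Igf1r probe A_55_P2804885 differed by 0.38 (adjusted p = 0.0314), and its call, though not the difference itself, was lost without ChREBPβ-line WT replicate 2 (0.34), total ChREBP KO replicate 2 (0.35) or total-line WT replicate 8 (0.31), with adjusted p of 0.0504 to 0.0539. That call held in 12 of 16 other settings. The value was 0.34 with macrophage and stromal list means (adjusted p = 0.138) and 0.45 without the arrays with liver markers (adjusted p = 0.33). With median intensity scaled to the 75th percentile it was 0.26 (adjusted p = 0.133).

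The genes whose pattern over the 32 arrays was most like that of a member, searched among 15316 genes, are given as a description, since arrays share group, line and tissue makeup. For Foxo1 these were Sdc4 (r = 0.94), Mfsd2a (r = 0.91) and Dio2 (r = 0.91), the last the deiodinase that activates thyroid hormone in brown fat. With group means removed the values were 0.71, 0.69 and 0.58. For Irs2 they were Gem (r = 0.93), Thbs1 (r = 0.93) and the chemokine Ccl2 (r = 0.92), which fell to 0.69, 0.70 and 0.70. For Irs1 they were Ppp2r1b, Atg4a and Gda (r = 0.82 to 0.83, and 0.59 to 0.69 with group means removed). For Igf1 they were Alcam, Igfals and the collagen gene Col6a3 (r = 0.80 to 0.85, and 0.66 to 0.71 so). For Igf1r they were Slc52a2, Smpd1 and Slc25a33 (r = 0.85 to 0.88), which fell to 0.66, 0.48 and 0.43 with group means removed. The closest genes to the members with no called knockout difference were Fnbp1 for Insr (r = 0.77), Eif2ak1 for Akt1 (r = 0.80), Ncan for Akt2 (r = 0.74) and Fra10ac1 for Pik3r1 (r = 0.74). With group means removed these were 0.79, 0.77, 0.73 and 0.68. Between members, by brightest probe, Irs2 and Foxo1 had the highest value, r = 0.82, and 0.31 with group means removed. So removed, other pairs were higher, among them Irs2 with Igf1 (0.55), Insr with Foxo1 (0.50) and Irs2 with Pik3r1 (0.42).

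The members were set beside 75 other genes of the pathway in 7 lists, of which 73 had a probe that passed the filter. In total ChREBP KO 38 of the 73 passed the limma test by their brightest probe (20 higher, 18 lower), or 52.1%, beside 44.1% of all genes. With macrophage and stromal list means in the fit 24 passed. In ChREBPβ KO 3 passed, or 4.11%, beside 2.70% of all genes (1.37% higher, 1.33% lower): Grb14, which encodes an adaptor that inhibits the insulin receptor (0.68, SE 0.14, adjusted p = 0.00398), Trib3, an Akt-binding pseudokinase (0.66, adjusted p = 0.0292), and Gsk3b, a kinase that Akt restrains (-0.45, adjusted p = 0.00125). With slide as a fixed block, or without the arrays with liver markers, 0 passed. The latter leaves 2 ChREBPβ-line WT and 3 ChREBPβ KO arrays. The share of all genes passing was not taken for the fits with covariates, a block or fewer arrays. Grb14 was also the gene of the 73 that rose most in total ChREBP KO (1.77, adjusted p = 2.86e-12), followed by Klf15 (2.83-fold), Bnip3 (log2 fold change 1.27), Pck1 (1.03) and Sesn3 (0.91). The 5 that fell most were Deptor (-1.79), Gadd45a (-1.38), Grb7 (-1.07), Mtor (-1.06) and Pik3cb (-0.78). The knockout effects differed for 28 of the 73 (8 higher and 20 lower in the ChREBPβ effect, 38.4%), beside 25.2% of all genes (12.2% higher, 13.0% lower). Between the WT groups 32 passed (16 higher, 16 lower, 43.8%), beside 38.9% (24.8% higher, 14.1% lower). With a fold of at least 1.5 as well, 12 passed in total ChREBP KO beside 10.1% of all genes, 12 in the difference beside 7.89% and 8 between the WT groups beside 8.01%.

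Among 11 measured genes of ligand handling, 4 passed in total ChREBP KO (36.4%, beside the 44.1% of all genes). Ide, the insulin-degrading enzyme, rose by 0.46 and Igfbp5, an IGF-binding protein, by 0.36, whereas the growth factor Igf2 fell by 0.51 and its clearance receptor Igf2r by 0.23. Among 8 PI3-kinase subunits 4 passed, of which 1 rose (Pik3r3, 0.51) and 3 fell, the catalytic subunits Pik3cb, Pik3cd (-0.34) and Pik3cg (-0.33). Among 9 genes of the Akt-activating kinases and mTOR complexes (55.6% passed), Rictor (0.29) and Rptor (0.18), the defining subunits of the mTOR complexes, rose, and 3 fell, among them Deptor, an mTOR inhibitor, and Mtor itself. Mtor ran at a mean of 11.4 in total-line WT and 10.4 in total ChREBP KO without overlap.

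Among 12 Akt substrates and effectors 5 rose and 2 fell in total ChREBP KO (58.3% passed, beside 44.1% of all genes, 22.9% higher and 21.1% lower). Pde3b, the phosphodiesterase through which insulin restrains lipolysis, rose by 0.65 and Eif4ebp1, a brake on translation downstream of mTOR, by 0.42, while Gsk3b fell by 0.50 and Rps6kb1, the S6 kinase, by 0.35. Gsk3b fell in either knockout by the limma test over all arrays, with a difference between them of 0.05 (95% confidence interval -0.18 to 0.29). In the Ras-MAP kinase branch, where 55.6% passed, 1 of 9 rose (Map2k2, 0.17) and 4 fell, among them the adaptor Grb2 (-0.36) and the exchange factor Sos1 (-0.27). Of 13 inhibitors 4 rose and 2 fell (46.2%). The Akt phosphatases Phlpp1 (0.52) and Phlpp2 (0.51) rose with Grb14, and the adaptor Grb7 fell. The median log2 fold change of the inhibitors was -0.01.

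Of 11 measured genes known as FoxO targets, 7 passed in total ChREBP KO, 5 higher and 2 lower (63.6%, beside 44.1% of all genes, 22.9% higher and 21.1% lower), and the median log2 fold change was 0.80, against 0.01 over all genes. Klf15, a transcription factor of fasting metabolism, Bnip3, a mitophagy receptor, Pck1, the glyceroneogenic and gluconeogenic enzyme, Sesn3 and Ccng2 (0.83) rose. Gadd45a, a stress gene, and Sesn1 (-0.33) fell. Pdk4 (-0.20), Fbxo32 (-0.19), Cdkn1b (-0.03) and Bcl6 (0.80, adjusted p = 0.0725) did not pass. In ChREBPβ KO 0 of the 11 passed, beside 2.70% of all genes, and the median was 0.09. An unadjusted p under 0.05 was found for 1 of the 11 and for 3458 of all 24523 genes. The direction of the list was hence not uniform, as the plot of pathway genes shows.

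**Figure D4:**
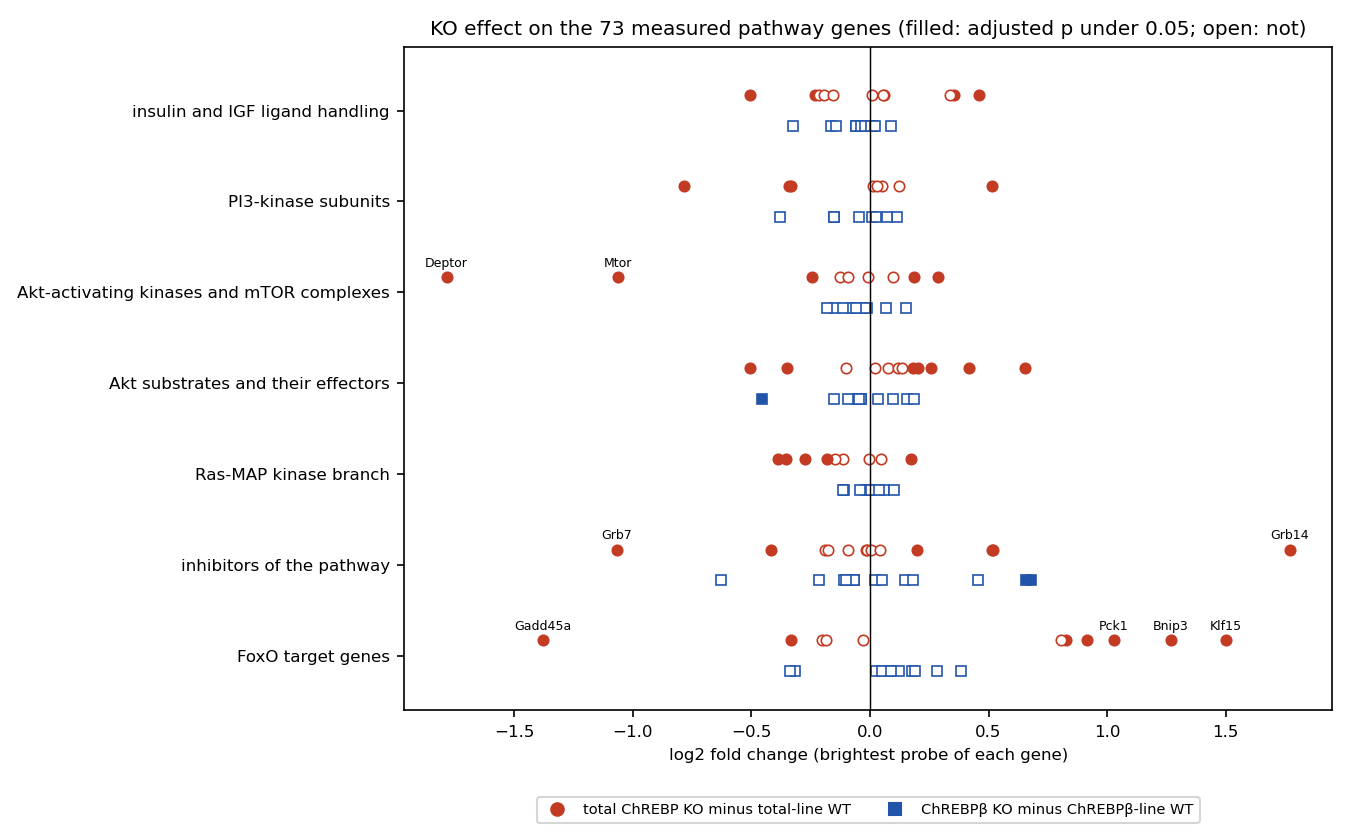
Log2 fold change of the brightest probe of each of the 73 measured pathway genes, by list, in total ChREBP KO (circles, upper row of each list) and ChREBPβ KO (squares, lower row); filled symbols passed an adjusted p of 0.05 in limma, and called genes beyond 0.95 in size are named. Filled circles lie on either side of 0 in all 7 lists, and 3 squares are filled.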

How the data were processed

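The samples were whole brown adipose tissue, read on 32 Agilent arrays of 1 colour, 8 per group. The deposited scanner files hold spot intensity as written by Agilent Feature Extraction (10.10.1.1), not normalized between arrays. The authors' own log2 table was filtered and quantile normalized by them, with replicated probes merged. From the scanner files, spots were kept that were found, positive and well above background on 26 of 32 arrays, or on 6 arrays of 1 group, as in the study. Median intensity was log2 transformed and quantile normalized, and the median was taken per probe, leaving 37306 probes and 24523 gene names, on average 0.00298 away from the authors' log2 values. Arrays have no read depth: 64.4% to 71.1% of spots were well above background, 0 were saturated, and the number of arrays limits the precision.

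Each probe was fitted with limma 3.58.1 (R 4.3.3; lmFit and eBayes), with 4 group means over all 32 arrays. Two-sided p values were corrected by Benjamini and Hochberg's method across the 37306 probes, with 0.05 as the threshold. The fit was tested on simulated data. Probes of 1 gene were compared by an exact permutation test over 12870 divisions of 16 arrays. That the arrays of a group came from separate mice is not stated sample by sample, so p values measure the spread between arrays. Replicate numbers recur between groups but did not pair the arrays throughout, so the main fit has no pairing. Same-number arrays had r over 0.1 in 0 of 8 pairs of the total line and 6 of 8 of the ChREBPβ line. Every group was spread over the 4 wash batches and both scan days, with 15 slides in all.

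The members, the pathway lists and the marker lists were chosen with earlier results of these data known. Named pathway genes were the 5 highest and 5 lowest called per knockout and examples from each list, called ones first by size. Some list members are counted but not reported by name here. Igfbp1 and G6pc had no probe that passed the filter. Of the 20 member probes 15 had an accession that matched RefSeq, all under the same symbol. Alternatives were other scalings and filters, batch, slide, scan day and replicate blocks, marker lists as covariates, other thresholds, and leaving out arrays.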

Additional observations from a re-analysis of the deposited data

Results flagged for a closer look

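Single arrays stood apart from the other 7 of their group in 11 of 80 groups of a member probe (gap over range above Dixon's limit), where chance gives about 1 in 20. Total-line WT replicate 2 did so for Irs1 (12.02), Igf1 A_55_P2085979 (9.38) and Igf1r A_55_P2736764 (8.15), and total-line WT replicate 8 for Igf1r A_55_P2804885 (6.79). Of the ChREBPβ-line WT arrays, replicate 8 stood apart for Irs2 (11.88), replicate 5 for Akt1 A_51_P237553 (12.65), replicate 2 for Akt1 A_66_P107415 (8.50) and replicate 3 for Akt2 A_55_P2066523 (4.15). Of the ChREBPβ KO arrays, replicate 4 stood apart for Akt1 A_52_P418014 (6.85) and Akt2 A_55_P2066518 (14.72), and replicate 1 for Akt1 A_66_P107415 (8.57).

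The effects of the knockouts differed by the limma test of that difference (ChREBPβ minus total, log2 scale) for Irs1 (0.46), for both Foxo1 probes (-0.40 and -0.62), for Igf1 A_51_P147942 (-0.74) and A_55_P2085979 (-0.44), and for Igf1r A_55_P2736764 (-0.57) and A_55_P2804885 (0.38). Without the arrays with liver markers, which leaves 2 to 6 arrays per group, 1 of these 7 passed (Igf1r A_55_P2736764, -0.48, adjusted p = 0.0374). The call of the brightest Foxo1 probe (A_55_P2798990) held in 11 of 32 fits that left out 1 array and in 9 of 16 other settings.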

How the results depend on the processing

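Of the 20 member probes, 6 passed in total ChREBP KO, 0 in ChREBPβ KO, 7 in the difference between the knockout effects and 8 between the WT groups. Of the 73 pathway genes, 38, 3, 28 and 32 passed. Leaving out 1 array gave 6 to 8, 0 to 0, 5 to 9 and 5 to 10 member probes and 37 to 41, 2 to 6, 25 to 30 and 27 to 35 pathway genes. The member count between the WT groups was 5 without ChREBPβ-line WT replicate 2 or total-line WT replicate 8, and the ChREBPβ KO pathway count was 6 without ChREBPβ-line WT replicate 5. No direction of a called member probe turned under these alternatives, except that of Igf1r A_51_P318365 between the WT groups (0.22, lowest -0.002). Scaling median intensity to the 75th percentile gave 5 member probes between the WT groups. Slide as a fixed block gave 0 pathway genes in ChREBPβ KO and 4 member probes in the difference (Foxo1 A_52_P453884, Igf1 A_55_P2085979, Igf1r A_55_P2736764 and, not called without the block, Akt1 A_52_P418014). At an adjusted p of 0.01 the difference held 3 member probes and 14 pathway genes, and the WT groups 4 and 19. With a fold of at least 1.5, total ChREBP KO held 12 pathway genes, the difference 2 member probes and 12 pathway genes, and the WT groups 2 and 8. Liver and muscle list means as covariates left 2 member probes and 11 pathway genes between the WT groups. Macrophage and stromal list means, added after seeing the data, left 24 pathway genes in total ChREBP KO, 18 in the difference, and 2 member probes and 10 pathway genes between the WT groups. Without the 17 arrays with liver markers, also added, 0 pathway genes passed in ChREBPβ KO, 1 member probe and 11 pathway genes in the difference, and 4 and 17 between the WT groups, which has fewer arrays by construction. For the rest the cause was not tested. The muscle list did not overlap between the lines, and the macrophage list did not between total ChREBP KO and its WT. Those covariate fits cannot separate the list from the group. The share of all probes or genes passing was not taken under other scalings, blocks, covariates or fewer arrays. A loss of calls over the whole array is thus not told apart from one in these genes.

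With the replicate number as a block the ChREBPβ KO count of member probes went from 0 to 1 (Foxo1, 0.28, adjusted p = 0.0227). Same-number arrays did not deviate together throughout (r -0.30 to 0.08 in the total line, -0.20 to 0.53 in the ChREBPβ line, where 6 of 8 pairs were over 0.1 and 1 of 8 arrays correlated best with its own number). Signal over background limits the Akt2 probe A_55_P2066523 on 1 array.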
